A study of Mus musculus with 4 samples.

Results

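Voltage-gated sodium channel subunits were examined in the brain cortex of SAMP8 mice, a strain bred for accelerated ageing, after oral treatment with TCQA or water. The members were the array rows whose annotated gene symbol was one of 8 subunit genes: the pore-forming alpha subunits Scn1a, Scn2a, Scn3a, Scn8a and Scn9a, and the accessory beta subunits Scn2b, Scn3b and Scn4b. Of these 8 genes, 7 were found, each with 1 probe set, among 19505 gene symbols and 22206 gene probe sets. Scn9a is not analysed here. The TCQA group was male SAMP8 mice given 5 mg/kg of oral TCQA daily, starting at 11 months old and lasting 1 month, and TCQA is a compound named only by its abbreviation in the labels. The control group was male SAMP8 mice of the same age and the same schedule that received MilliQ water. All mice had lived in individual cages for the preceding 4 months, since they were 7 months old, and there were no mice of another strain. Each group had 2 arrays, and the labels do not say whether these came from separate mice.

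An alpha subunit forms the whole sodium-selective pore and its voltage sensors, and it opens on depolarisation to start the action potential and then inactivates. Beta subunits are single-pass membrane proteins with an immunoglobulin-like domain that change the gating and surface expression of the channel and act as adhesion molecules. In cortex, Nav1.1 (Scn1a) is prominent in parvalbumin interneurons, while Nav1.2 (Scn2a) and Nav1.6 (Scn8a) serve mainly excitatory axons, with Nav1.6 dense at the axon initial segment and the nodes of Ranvier. Nav1.3 (Scn3a) is best known from the embryonic brain.

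Several of the genes lie beside another subunit gene. In RefSeq's order of coding genes (GRCm38.p6), Scn3a and Scn2a are next to each other on chromosome 2, as are Scn1a and Scn9a on the same chromosome, and Scn2b is followed directly by Scn4b on chromosome 9. Scn3b is also on chromosome 9 but apart from these, between Zfp202 and Gramd1b, and Scn8a is on chromosome 15. RefSeq promoter windows were at hand for 6 of the 8 genes. The 250 bases before the annotated start are printed for the neighbours Scn2b and Scn4b and for Scn8a, to show how their CG content differs. Among the measured subunits, Scn8a had the signal that ran closest to that of Scn2b over the arrays. Capitals mark each CG, the site of most DNA methylation in mammals, and the windows read 5′ to 3′ on the plus strand, which carries all of these genes, at chr9:45117626-45117875 for Scn2b, chr9:45138374-45138623 for Scn4b and chr15:100870395-100870644 for the first of the Scn8a starts.
Scn2b: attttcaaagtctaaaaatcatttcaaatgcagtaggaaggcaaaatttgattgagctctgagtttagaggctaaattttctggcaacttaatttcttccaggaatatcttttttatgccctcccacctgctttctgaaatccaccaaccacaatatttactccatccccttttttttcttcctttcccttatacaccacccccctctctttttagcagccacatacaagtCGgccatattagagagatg
Scn4b: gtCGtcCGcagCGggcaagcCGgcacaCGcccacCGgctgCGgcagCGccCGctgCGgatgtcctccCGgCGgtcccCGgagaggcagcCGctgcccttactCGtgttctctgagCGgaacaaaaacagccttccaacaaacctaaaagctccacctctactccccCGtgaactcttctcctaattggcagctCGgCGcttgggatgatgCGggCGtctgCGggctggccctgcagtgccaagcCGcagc
Scn8a: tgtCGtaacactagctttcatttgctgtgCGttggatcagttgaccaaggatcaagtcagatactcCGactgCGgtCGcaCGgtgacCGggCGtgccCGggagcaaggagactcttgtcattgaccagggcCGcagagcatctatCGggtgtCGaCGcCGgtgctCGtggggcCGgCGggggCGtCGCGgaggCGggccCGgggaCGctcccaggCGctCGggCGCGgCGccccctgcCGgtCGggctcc

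The Scn2b window held 1 CG, the Scn4b window 23, the first Scn8a window 30 and the second, not printed, 9, against a median of 6 over all 32851 promoter windows of that length. Motifs were searched by their letters on both strands, and none of them contains another. The cAMP response element, TGACGTCA, occurred in 1.55% of all windows. The left arm of RE1, TTCAGCACC, part of the element bound by the neuronal gene repressor REST, occurred in 0.301%. The GC box was searched as GGGCGG and was found in 32.7%. The TATA box, read here as the letters TATAAA, was present in 12.4%. For the E-box the letters were CACGTG, with a share of 6.02%. Among the 8 windows of the 6 genes the only match was 1 TATA box, in the second of the Scn2a windows. No match says only that these letters are absent from the window. The arrays measured RNA and not methylation or binding, and 1 probe set per gene does not separate the alternative starts of Scn2a or Scn8a.

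The comparison of the groups asked whether 1 month of TCQA was followed by a different level of sodium channel RNA in the cortex. No subunit passed the test: limma's adjusted p (Benjamini-Hochberg over 22206 gene probe sets) was 0.847 for Scn2b, the smallest, and 0.991 for Scn3a, the largest. None of the 7 had an unadjusted limma p under 0.05, against 6.24% of all gene probe sets, and none met the depositors' criterion of an unadjusted p under 0.05 with a fold over 2, met by 0.374%. Over the whole array 0 probe sets passed limma at an adjusted p under 0.05, while 1386 had an unadjusted p under 0.05. With 2 arrays in each group the 95% confidence interval is the more useful statement. For all 7 subunits it lay within a 2-fold difference either way, as it did for 86.4% of all gene probe sets, and for 4 (Scn1a, Scn2a, Scn3a and Scn3b) it lay within 1.5-fold, as it did for 28.3%. A p that misses the threshold does not show equal levels. In RNA from whole tissue, fewer cells of a type and less RNA per cell cannot be told apart.

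**Figure D1:**
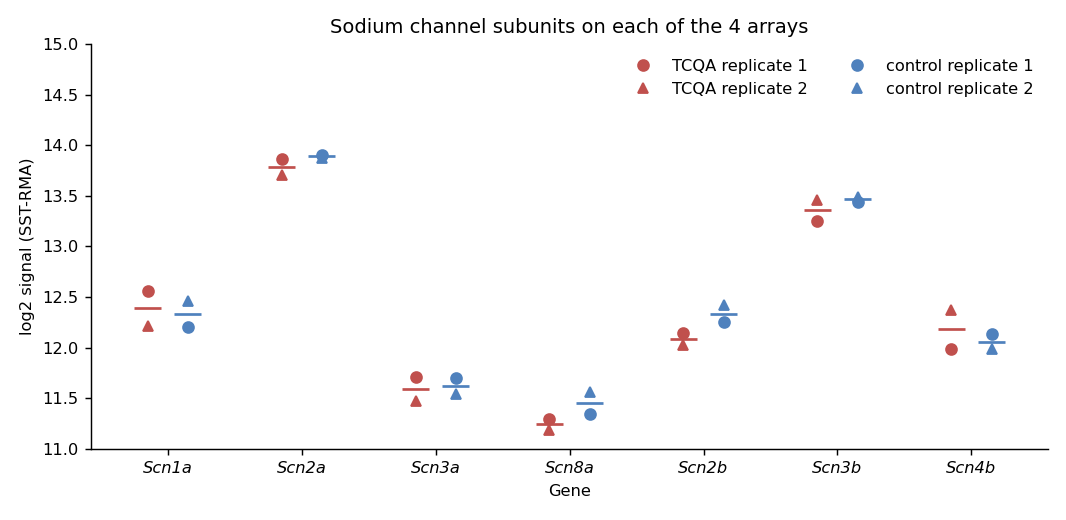
Log2 signal (SST-RMA, vertical axis) of the 7 measured subunits on each array, with TCQA arrays in red to the left of control arrays in blue; circles are replicate 1, triangles replicate 2 and lines the group means. The arrays of a gene span at most 0.40, reached by Scn2b; heights of different genes come from different probes and are not to be compared.

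Scn2a, a main alpha subunit of excitatory neurons, had log2 signals of 13.86 and 13.71 with TCQA, against 13.91 and 13.88 in control. Both TCQA arrays were below both control arrays, but the gap between the nearest arrays was 0.01. The means were 13.79 ± 0.11 and 13.89 ± 0.02 (SD, n = 2 each). The difference was -0.10 (SE 0.18, 95% interval -0.53 to 0.32, limma adjusted p = 0.940), which places the TCQA level at 93.0% of control with an interval of 69.2% to 125.0%. It was -0.18 without TCQA replicate 1 and -0.03 without TCQA replicate 2.

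Scn8a, which carries much of the current that triggers the spike at the axon initial segment, had log2 signals of 11.30 and 11.19 with TCQA, against 11.34 and 11.56 in control. The TCQA arrays were again the lower pair, and the nearest arrays of the groups were 0.05 apart. The difference was -0.21 (SE 0.18, 95% interval -0.65 to 0.24, limma adjusted p = 0.869), or 86.6% of control. It kept its direction with each array left out, between -0.31 without control replicate 1 and -0.10 without control replicate 2.

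Scn1a, whose loss of function in inhibitory neurons causes Dravet syndrome in humans and seizures in mice, had log2 signals of 12.56 and 12.22 with TCQA, against 12.20 and 12.46 in control. The groups overlapped, and the arrays of a group stood further apart than the group means. The difference was 0.06 (SE 0.21, 95% interval -0.45 to 0.57, limma adjusted p = 0.978). Its direction rested on single arrays: it was -0.11 without TCQA replicate 1 and -0.07 without control replicate 1.

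Scn3a had log2 signals of 11.71 and 11.47 with TCQA, against 11.69 and 11.54 in control. The groups overlapped here too. The difference was -0.03 (SE 0.19, 95% interval -0.48 to 0.43, limma adjusted p = 0.991), the smallest of the 7, and it was 0.09 without TCQA replicate 2 and 0.05 without control replicate 1. Of all gene probe sets, 91.4% had a larger absolute difference.

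Among the beta subunits, Scn2b had log2 signals of 12.14 and 12.02 with TCQA, against 12.25 and 12.42 in control. The beta-2 protein is joined to the alpha subunit by a disulphide bond and raises the number of channels at the surface. Both TCQA arrays were below both control arrays, with the nearest 0.11 apart. The means were 12.08 ± 0.08 and 12.34 ± 0.12 (SD, n = 2 each). The difference of -0.26 was the largest of the 7 in size (SE 0.18, 95% interval -0.69 to 0.18, limma unadjusted p = 0.204, adjusted p = 0.847), or 83.8% of control with an interval of 61.9% to 113.4%. It lay between -0.34 and -0.17 with each array left out, and 32.2% of all gene probe sets had a larger absolute difference.

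Scn3b, whose beta-3 protein binds the alpha subunit without a covalent bond, had log2 signals of 13.25 and 13.46 with TCQA, against 13.44 and 13.49 in control. TCQA replicate 1 was the low array, and TCQA replicate 2 lay between the control arrays. The difference was -0.11 (SE 0.18, 95% interval -0.54 to 0.33, limma adjusted p = 0.940), and -0.00425 without TCQA replicate 1.

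Scn4b had log2 signals of 11.99 and 12.37 with TCQA, against 12.13 and 11.99 in control. The tail of the beta-4 protein can block the open channel and so give rise to resurgent sodium current, and the gene is also strongly expressed in the striatum. TCQA replicate 2 was the high array, and the other TCQA array lay between the controls. The difference was 0.12 (SE 0.21, 95% interval -0.38 to 0.62, limma adjusted p = 0.939), and -0.07 without TCQA replicate 2. Of 8 measured striatal neuron markers, 6 were also highest on TCQA replicate 2, as were 5676 of all 22206 gene probe sets. On TCQA replicate 1, 7 of the 8 were lowest, as were 5513 of all gene probe sets. Scn4b itself was lowest on control replicate 2, at 11.987 against 11.991 on TCQA replicate 1. The list's mean log2 signal was 13.48 and 14.00 with TCQA and 13.75 and 13.94 in control. The part of striatal tissue in the Scn4b values was not tested.

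**Figure D2:**
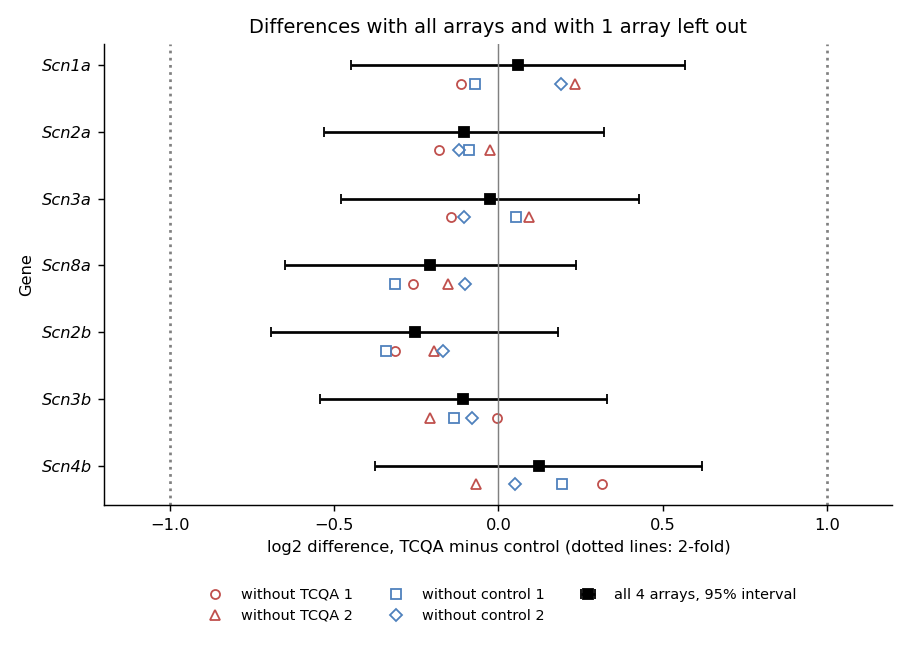
Log2 difference, TCQA minus control (horizontal axis), of each subunit with its 95% interval (black, all 4 arrays) and, as open symbols under it, the difference with 1 array left out. All 7 intervals include 0 and stay inside the dotted lines at 2-fold; the open symbols of Scn1a, Scn3a and Scn4b fall on both sides of 0.

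Of the 7 subunits, 5 had a lower mean with TCQA, as did 48.9% of all gene probe sets, and 2 a higher mean, as did 51.1%. Their median difference was -0.10, against 0.01 over all gene probe sets. The median absolute difference was 0.11, against 0.17 over all gene probe sets and 0.15 over those at or above the median signal. The arrays of the groups did not overlap for 3 of the 7 subunits (Scn2a, Scn8a and Scn2b), against 36.6% of all gene probe sets. These 3 were lower with TCQA, as were 17.8% of all gene probe sets, and 0 of the 7 were higher without overlap, against 18.9%. The median gap between the 2 arrays of a group was 0.20 with TCQA and 0.16 in control, which is larger than the median difference between the groups. The lowest signal fell on TCQA replicate 2 in 4 of the 7 (Scn2a, Scn3a, Scn8a and Scn2b), and the highest on control replicate 2 in 3 (Scn8a, Scn2b and Scn3b). Over all 22206 gene probe sets, the lowest fell on TCQA replicate 2 in 5522 and the highest on control replicate 2 in 5374.

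Profiles over the 4 arrays were compared as the root mean square distance between log2 values centred on each gene's own mean. Scn8a and Scn2b lay 0.03 apart, the closest pair of subunits. Of 10021 genes at or above the median signal, 17 were nearer to Scn8a than Scn2b was, the nearest being Sec23a at a distance of 0.01. Scn2a and Scn3a, neighbours on the chromosome, lay 0.07 apart, with 598 genes nearer to Scn2a. The neighbours Scn2b and Scn4b lay 0.28 apart, and Scn1a and Scn4b, at 0.30, were the pair furthest apart. The nearest genes were Mrpl12 for Scn1a at 0.02, Gm5643 for Scn2a and Ocel1 for Scn3a at 0.01 each, Rcor3 for Scn2b at 0.02, Gatad1 for Scn3b at 0.005 and Fam53c for Scn4b at 0.01. With 4 arrays such distances are a description, and many genes lie this close.

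**Figure D3:**
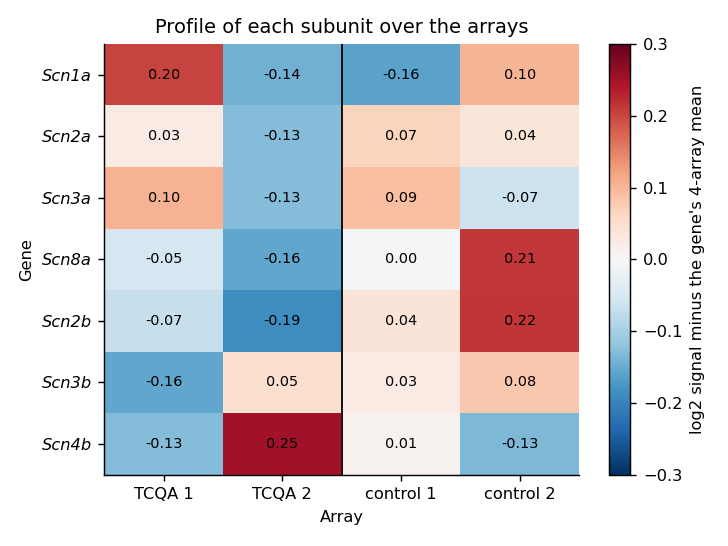
Log2 signal of each subunit minus its own mean over the 4 arrays, by array (columns, TCQA left of the line and control right of it). Scn8a and Scn2b run together, with values of -0.16 and -0.19 on TCQA replicate 2 and 0.21 and 0.22 on control replicate 2, while Scn4b is high on TCQA replicate 2 at 0.25.

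Subunits were also set against each other within each array, which removes only a shift common to both genes. A shift in the cells sampled that touches the 2 genes unequally stays in. The difference in response is the TCQA mean minus the control mean of that value, whatever its cause. The tests were exact permutations over the 4 arrays, two-sided, which cannot give a p under 0.333, and 5 pairs were compared. The log2 value of Scn1a minus that of Scn8a was 1.27 and 1.03 with TCQA, against 0.86 and 0.90 in control, so the difference in response was 0.27 (exact p = 0.333, adjusted over the pairs 0.667). That of Scn3b minus Scn4b was 1.26 and 1.09 with TCQA, against 1.30 and 1.50 in control, a difference in response of -0.23 (exact p = 0.333, adjusted 0.667). In these 2 of the 5 pairs the groups did not overlap, as they did not for 36.6% of all gene probe sets taken singly. No such share was counted for differences between 2 genes. The pairs share Scn8a or Scn4b and so are not independent. For Scn2a and Scn3a against Scn8a, and for Scn2b against Scn4b, the arrays of the groups overlapped, and the differences in response were 0.10, 0.18 and -0.38 (exact p = 0.667 each). These tests could not show any pair to respond differently, because their p cannot fall under 0.333.

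Other sodium channel and leak channel genes gave 6 measured members of 11, of which 0 had an unadjusted limma p under 0.05. Their median difference was -0.17. Scn10a and Scn11a, channels of peripheral pain-sensing neurons, had signals of 3.70 to 4.13 with TCQA and 3.82 to 4.22 in control, far under the negative controls, whose median was 7.17 to 7.32. Scn7a, a related channel that senses sodium rather than voltage, had signals of 7.31 and 7.69 with TCQA, against 7.20 and 8.13 in control. Nalcn, the leak channel that sets resting potential, had signals of 10.97 and 10.80 with TCQA, against 10.61 and 10.76 in control, a difference of 0.20 (SE 0.18, limma adjusted p = 0.874). Its auxiliary subunits Unc79 and Unc80 differed by -0.06 (SE 0.23) and -0.17 (SE 0.17). The 7 subunits themselves were above the upper quartile of the negative controls (8.55 to 8.75) on all 4 arrays.

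Genes whose proteins bind or modify the channel gave 14 measured members of 19, of which 9 had a higher and 5 a lower mean, and 0 passed limma at an unadjusted p under 0.05. The intracellular fibroblast growth factor homologues, which bind the channel's tail and shift its inactivation, differed in direction, and Fgf11 and Fgf14 had the smallest p of the list. Fgf14 had log2 signals of 13.47 and 13.25 with TCQA, against 12.91 and 13.06 in control. All its TCQA values were above its control values, with a difference of 0.37 (SE 0.19, limma adjusted p = 0.809). Fgf11 differed by 0.47 (SE 0.21, limma adjusted p = 0.799), at signals of 7.49 and 7.18 with TCQA and 7.01 and 6.72 in control that are near the negative controls. Fgf13 was lower on both TCQA arrays, at 9.98 and 10.04 against 10.21 and 10.18 in control, with a difference of -0.19 (SE 0.17, limma adjusted p = 0.875), and Fgf12 differed by 0.05 (SE 0.20). Nedd4, a ubiquitin ligase of the family that removes channels from the membrane, differed by 0.22 (SE 0.17), and Camk2a, the alpha subunit of a kinase that phosphorylates channels and an excitatory neuron marker, by -0.28 (SE 0.17).

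The scaffold of the axon initial segment and node, where the channels are anchored, gave 18 measured members of 19, with 9 higher and 9 lower means and a median of -0.01. None had an unadjusted limma p under 0.05. Nfasc, the adhesion molecule neurofascin, had log2 signals of 11.54 and 11.48 with TCQA, against 11.84 and 12.05 in control, a difference of -0.43 (SE 0.18, 95% interval -0.87 to 0.0049, limma adjusted p = 0.799). Ank3, ankyrin-G, which binds Nav1.2 and Nav1.6 and anchors them, had signals of 13.81 on both TCQA arrays and 14.06 on both control arrays. The groups did not overlap, and the difference was -0.25 (SE 0.17, 95% interval -0.67 to 0.16, limma adjusted p = 0.837). Trim46, which organises the microtubules of the initial segment, differed by -0.33 (SE 0.19), and the spectrin gene Sptan1 by -0.19 (SE 0.17). Of the 18 genes, 5 were lower with TCQA without overlap between the groups, against 17.8% of all gene probe sets, and 2 were higher without overlap, against 18.9%. The 2 higher genes were Ank2, a further ankyrin, with a difference of 0.18 (SE 0.18), and Cntnap1, an adhesion molecule beside the node, with 0.12 (SE 0.17).

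Of 14 listed genes for sodium pump subunits, ion exchangers and cotransporters, 10 were measured, and 5 of these had a higher and 5 a lower mean. The pump genes measured were beta subunits only. Slc24a2, a sodium, calcium and potassium exchanger of neurons, was the only one with an unadjusted limma p under 0.05: its signals were 13.86 and 13.73 with TCQA, against 14.32 and 14.37 in control, a difference of -0.54 (SE 0.17, unadjusted p = 0.0196, adjusted p = 0.787). Among 10 measured regulators of channel transcripts, 1 had an unadjusted limma p under 0.05. This was Celf4, an RNA-binding protein of excitatory neurons that binds Scn8a transcripts in mice, with signals of 13.23 and 13.33 with TCQA, against 12.90 and 12.55 in control, a difference of 0.55 (SE 0.20, unadjusted p = 0.0301, adjusted p = 0.787). Rest was under the negative control median on all 4 arrays and differed by -0.36 (SE 0.19, limma adjusted p = 0.818), and its partner Rcor1 differed by 0.43 (SE 0.20, limma adjusted p = 0.800).

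**Figure D4:**
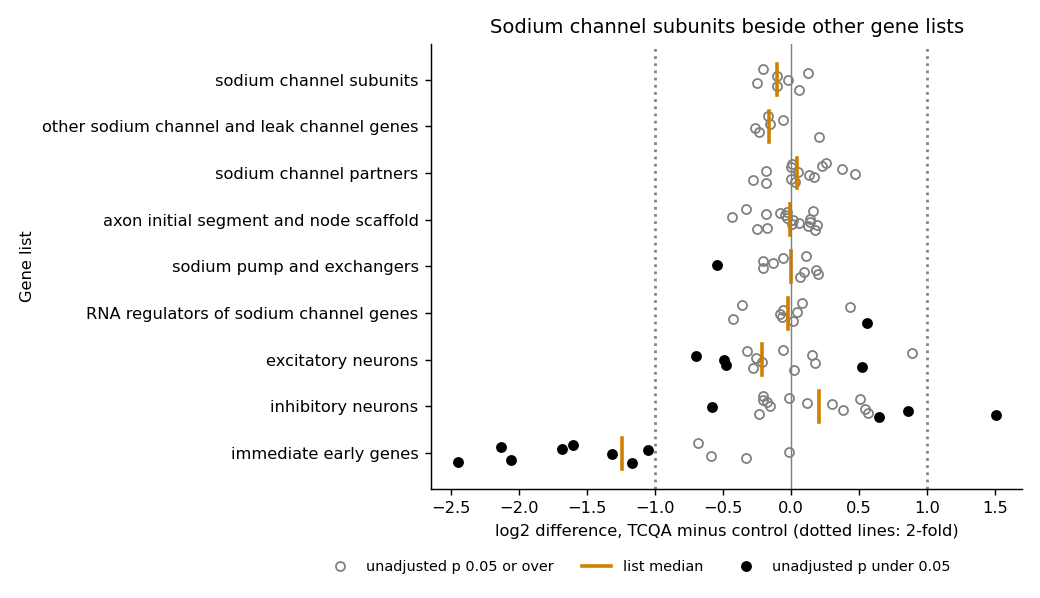
Log2 difference, TCQA minus control (horizontal axis), of each measured gene of 9 lists; filled points have an unadjusted limma p under 0.05 and bars are list medians. The 7 sodium channel subunits lie between -0.26 and 0.12 with no filled point. Of 12 immediate early genes 8 are filled and lower, against 636 of all 22206 gene probe sets lower at that threshold. All 12 were highest on control replicate 1.

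Markers of the cells that carry the channels were read beside these values. Of 13 excitatory neuron markers 8 had a lower mean, the median difference was -0.21, and at an unadjusted limma p under 0.05 there were 3 lower (Nrgn, Neurod2 and Cux2) and 1 higher (Cdh13). At that threshold 636 of all 22206 gene probe sets were lower and 750 higher. The lowest signal of 7 of the 13 fell on TCQA replicate 2, and the list's mean log2 signal was 12.03 and 11.82 with TCQA and 12.07 and 11.94 in control. For inhibitory neurons the median was 0.21, 9 of 16 markers had a higher mean, and mean signals were 11.17 and 10.97 with TCQA and 10.80 and 10.86 in control. Calb2, Dlx6 and Adarb2 were higher and the potassium channel gene Kcnc1 lower at an unadjusted limma p under 0.05. Dlx6 had log2 signals of 8.44 and 8.12 with TCQA, against 7.24 and 7.60 in control. Those of the excitatory marker Neurod2 were 7.84 and 7.63 with TCQA, against 8.39 and 8.08 in control. Both genes were under the upper quartile of the negative controls (8.55 to 8.75) on every array. Pvalb, the parvalbumin gene, had log2 signals of 10.91 and 10.39 with TCQA, against 10.92 and 10.79 in control, a difference of -0.20 (SE 0.23). Calb2 is also among 10 measured thalamic neuron markers, of which 7 had a higher mean, with a median difference of 0.44. On control replicate 1, 7 of the 10 were lowest, as were 6027 of all 22206 gene probe sets. Of the thalamic markers, Zic1 differed by 1.89 (SE 0.67) and Slc17a6, which is on the excitatory list too, by 0.88 (SE 0.42). None of these markers passed when adjusted over all gene probe sets (0 by limma). Immediate early genes, which follow neuronal firing, had lower means in 12 of 12 with a median of -1.25, and all 12 were highest on control replicate 1. Of the 7 subunits 1, Scn2a, was highest on that array, as were 5292 of all 22206 gene probe sets. Meningeal fibroblast markers had higher means in 10 of 10, as did 51.1% of all gene probe sets. Of these 10, 8 were lowest on control replicate 1, as were 6027 of all 22206 gene probe sets. The part of these shifts in the subunit values was not tested.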

How the data were processed

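RNA of 4 cortex samples was hybridised to Clariom S mouse arrays. The authors deposited a log2 signal for each probe set, made with SST-RMA in the Transcriptome Analysis Console (version 4.0.2), per the labels' protocols, an algorithm that normalizes the arrays to a common distribution. No source used here names the build of the array annotation. Of 28846 probe sets, 6640 were controls and 22206 entered the tests; 19572 had 1 symbol, 0 several and 2634 none here, after symbols were updated through RefSeq gene IDs. The brightest probe set stood for a symbol.

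Groups came from the sample titles. limma 3.58.1 in R 4.3.3 (lmFit, eBayes, two-sided, TCQA minus control, Benjamini-Hochberg adjustment over all gene probe sets) was the test, with residual degrees of freedom of 2 and 4.23 from the prior. P-values reflect only how these samples spread, which may be technical, and precision is limited by the number of arrays (median standard error 0.20). Array medians were 7.12 to 7.17 and correlations between arrays 0.991 to 0.993. The procedure was tested on simulated data whose changes were larger than any subunit difference here. It therefore does not show how often a difference of the subunits' size would be found. The members and lists were chosen with earlier results of these data known. All 7 measured members were named, with up to 4 genes of the smallest p in each other list (Scn7a, Unc79, Fgf12, Fgf13, Ank2, Cntnap1 and Pvalb were named outside this rule, after their values were seen) and up to 3 genes of the nearest profile to each member. Alternatives were other normalization, filters, priors, a replicate block and leaving out each array. Promoter windows were taken from RefSeq (GRCm38.p6), without the 50 bases after the start.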

Additional observations from a re-analysis of the deposited data

How the results depend on the processing

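With all arrays kept, the 7 subunits had the same direction and did not pass limma's adjusted threshold in all 49 combinations of subunit and alternative, and no difference moved by more than 0.033. The 7 alternatives were the replicate block, quantile normalization, median centring, leaving out dim probe sets, an intensity trend, a robust prior and no moderation. The smallest limma p of a subunit was 0.102 unadjusted, for Scn2b with the trend, and 0.694 adjusted, for Scn2b without dim probe sets. With 1 array left out, 5 of 28 differences turned direction: Scn1a ranged from -0.11 (-0.07 without control replicate 1) to 0.23, Scn3a from -0.143 to 0.0917 (0.05 without control replicate 1) and Scn4b from -0.0687 to 0.31. Scn2a ranged from -0.18 to -0.03, Scn8a from -0.31 to -0.10, Scn2b from -0.34 to -0.17 and Scn3b from -0.21 to -0.00425. There the lone array of a group is assumed to vary like the others.

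Over all genes, 0 to 4 probe sets passed the adjusted threshold with 1 array left out, the 4 without TCQA replicate 1. The depositors' criterion was met by 83 probe sets, by 42 without dim probe sets (11335 tested), by 25 without moderation and by 160 to 291 with 1 array left out. The replicate numbers were not shown to pair the arrays (deviations of same-numbered arrays correlated at 0.05 across genes), and with the replicate block 92 probe sets met the criterion. For the counts without moderation and with 1 array left out the cause was not tested.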
